A study of Arabidopsis thaliana with 24 samples.

Results

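The 10 genes described here encode enzymes that open the phenylpropanoid pathway and lead from phenylalanine towards lignin: PAL1 (AT2G37040), PAL2 (AT3G53260), PAL4 (AT3G10340), C4H (AT2G30490), 4CL1 (AT1G51680), 4CL2 (AT3G21240), 4CL3 (AT1G65060), HCT (AT5G48930), CAD4 (AT3G19450) and CAD5 (AT4G34230). They were picked by gene identifier from a table of 32833 genes, and all 10 were among the 20038 genes that passed the filter on low counts. RNA sequencing counted transcripts in rosettes of wild-type Arabidopsis thaliana. Seed had been treated with water (not-primed plants) or with methyl jasmonate (primed plants), a volatile ester of jasmonic acid, which signals wounding. Rosettes of each kind were taken without pests (controls) or at 24 hours of infestation by Tetranychus urticae, a spider mite that empties leaf cells, or by Pieris brassicae, a butterfly whose caterpillars chew leaves. The 6 groups held 4 libraries each. The labels number the biological replicates and leave it unsaid whether any was pooled from several plants; p-values here reflect the spread among these libraries. The labels used here give no plant age and no dose of methyl jasmonate.

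Phenylalanine ammonia-lyase (PAL) removes the amino group of phenylalanine to give cinnamate, and cinnamate 4-hydroxylase (C4H) turns cinnamate into p-coumarate. The 4-coumarate:CoA ligases (4CL) activate p-coumarate as a CoA ester, from which flavonoids and lignin precursors both derive. Hydroxycinnamoyl transferase (HCT) moves the p-coumaroyl group to shikimate on the way to lignin, and the cinnamyl alcohol dehydrogenases CAD4 and CAD5 make the monolignols, which laccases and peroxidases join into lignin in the wall. Lignin stiffens xylem vessels and is also laid down in walls of wounded or attacked leaves, and the flavonoid branch yields sunscreens and pigments.

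Library totals were between 15852109 and 27986799 counts. Levels of a gene are given in CPM, counts scaled to a common library size normalized by edgeR. A gene changed where edgeR's quasi-likelihood test gave a Benjamini-Hochberg adjusted p under 0.05 over all 20038 genes, and adjusted p-values below are from that test unless another tool is named. Fold changes are log2 values ± SE with n = 4 libraries per group. The 4 not-primed controls fell into pairs: VSP2, JAZ10 and LOX2, jasmonate-responsive genes, summed to 240.2 and 95.1 FPKM in replicates 1 and 2, against 707 and 978 FPKM in replicates 3 and 4. The 4 leaf marker genes RBCS1A, RBCS2B, RCA and LHCB1.3 were high in every library, with summed levels of 25312 FPKM or more. Results that use the not-primed controls were also computed without each pair of them, and many of the larger moves are given beside the results.

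In control plants that were not primed, most of the 10 genes were abundant. On the length-scaled FPKM scale the highest mean level was that of HCT, at 201 ± 11.4 FPKM (SD, n = 4), followed by C4H at 171 ± 7.05 and CAD4 at 156 ± 17.8 FPKM. PAL1, PAL2 and 4CL1 lay close together at 125 ± 8.44, 116 ± 7.22 and 114 ± 7.28 FPKM, and the libraries of neighbours in this order overlapped, as did those of C4H and CAD4. The remaining 4 genes were much lower: 4CL3 at 22.4 ± 1.45 FPKM overlapped with CAD5 at 19.8 ± 5.63, and 4CL2 at 7.43 ± 1.38 overlapped with PAL4 at 6.06 ± 0.565 FPKM. The order was another in infested plants. Under mites, not primed, C4H led with 138 ± 5.69 FPKM, followed by PAL1 at 123 ± 7.59 and HCT at 110.0 ± 2.48 FPKM, and the libraries of these neighbours did not overlap. Under caterpillars, not primed, PAL1 at 158 ± 27.1, C4H at 154 ± 6.36 and HCT at 148 ± 6.54 FPKM came first, and the libraries of each overlapped with those of the next.

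**Figure D1:**
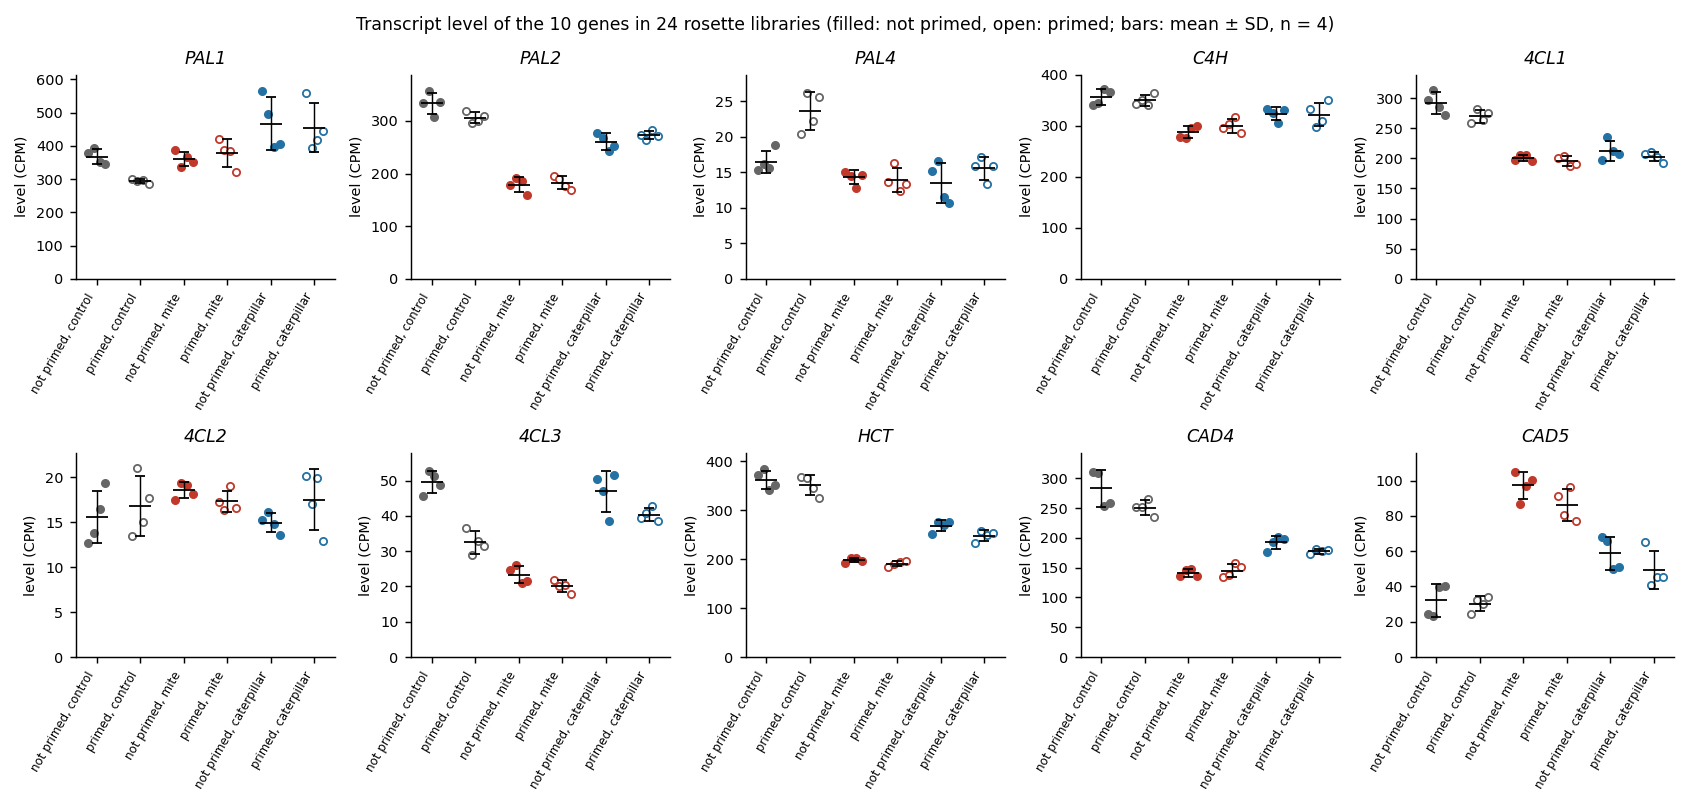
Level in CPM (y axis, linear, from 0) of each of the 10 genes in all 24 libraries, by group; filled points are not-primed and open points primed plants, bars are mean ± SD, n = 4. CAD5 is higher in both infested states than in controls, while PAL2, 4CL1, HCT and CAD4 are lower; the CAD5 values of not-primed controls lie in pairs near 24 and 40 CPM.

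Both pests were compared with the uninfested control of the same seed treatment, the comparison that shows the response to each pest. Under mites most of the 10 genes fell while CAD5 rose. In not-primed plants 6 genes fell, CAD5 rose and 3 did not pass the test, where 51.4% of all tested genes changed (26.5% higher and 24.9% lower). In primed plants 7 fell, PAL1 and CAD5 rose and 4CL2 did not pass, against 45.7% of all tested genes (22.3% higher and 23.5% lower). The libraries of mite and control plants did not overlap for 8 of the 10 genes in not-primed and 9 in primed plants, against 45.8% and 43.4% of all tested genes. The median log2 fold change of the 10 genes was -0.43 in not-primed and -0.58 in primed plants, beside 0.01 and -0.02 over all tested genes. Fewer of them fell under caterpillars. In not-primed plants 4 genes fell and 2 rose, against 27.8% of all tested genes (14.2% higher and 13.6% lower), and in primed plants 4 fell and 3 rose, against 23.9% (12.1% higher and 11.8% lower). The libraries did not overlap for 7 and 8 of the 10, against 25.0% and 25.3% of all tested genes. The medians were -0.22 and -0.14, beside 0.00 and -0.01 over all tested genes. The pests share a control group within each seed treatment, so these counts are not independent of each other. In whole rosettes, fewer cells that express a gene and less RNA per cell cannot be told apart.

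**Figure D2:**
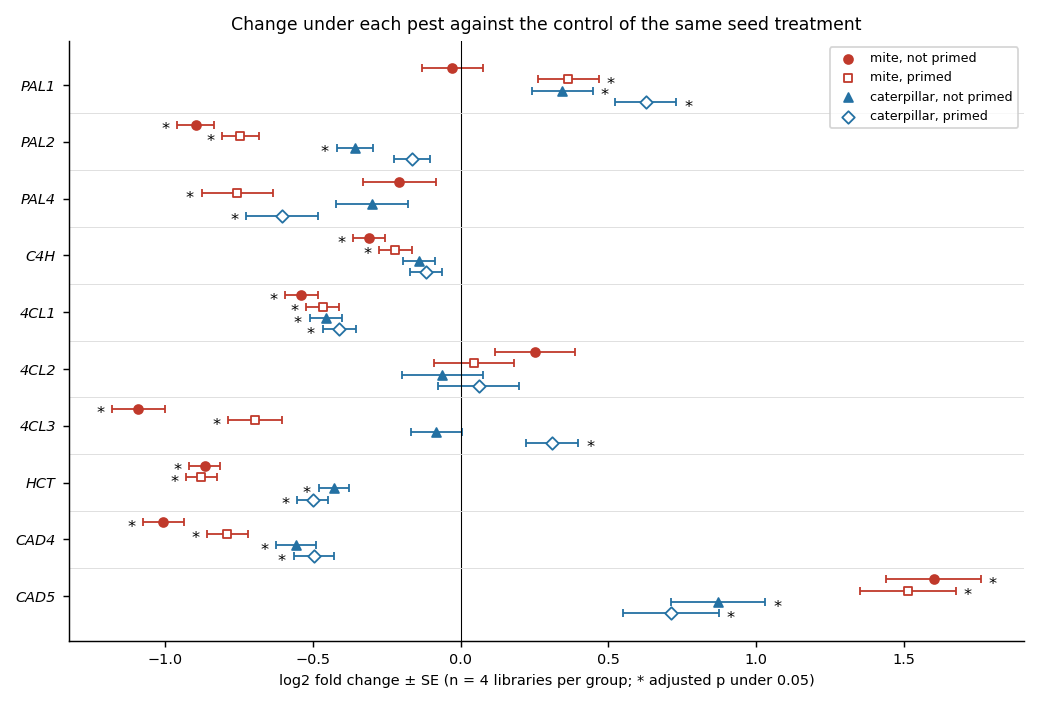
Log2 fold change ± SE (x axis) of each gene (y axis) under mites (red) and caterpillars (blue) against the control of the same seed treatment, n = 4 libraries per group; filled symbols are not-primed and open symbols primed plants, and an asterisk marks an adjusted p under 0.05. CAD5 lies to the right of 0 in all 4 comparisons and HCT, CAD4 and 4CL1 to the left; 4CL3 passes to the left of 0 under mites only.

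The 3 PAL genes did not all move alike, though no test compared them with one another. PAL1, one of the main PAL genes of Arabidopsis, had 379, 394, 351 and 345 CPM in the not-primed controls, 387, 335, 367 and 351 CPM under mites and 566, 496, 398 and 406 CPM under caterpillars. The mite and control libraries overlapped, and all caterpillar libraries were above all controls, with replicates 1 and 2 highest. The log2 fold change was -0.03 ± 0.10 (adjusted p = 0.836) under mites, with a 95% interval of -0.23 to 0.17, and 0.34 ± 0.10 (adjusted p = 0.0139) under caterpillars. The rise under caterpillars rested on single libraries: it was 0.24 (adjusted p = 0.0963) without caterpillar replicate 1, 0.29 (adjusted p = 0.0521) without control replicate 4, and 0.24 (adjusted p = 0.142) without controls 3 and 4. In primed plants PAL1 had 300.5, 295, 297 and 284 CPM in controls, 422, 388, 384 and 322 CPM under mites and 560.4, 394, 418 and 445 CPM under caterpillars. Here every infested library was above every control, and the rises were 0.36 ± 0.10 (adjusted p = 0.00539) under mites and 0.63 ± 0.10 (adjusted p = 6.41e-05) under caterpillars.

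PAL2, the other PAL gene expressed at a like level in controls, fell. It had 334, 356, 308 and 335 CPM in not-primed controls, 179, 192, 186 and 159 CPM under mites and 278, 268, 242 and 252 CPM under caterpillars. The 3 groups did not overlap, and the mite libraries were lowest. The log2 fold change was -0.90 ± 0.06 (adjusted p = 4.85e-11) under mites, a level 1.86 times lower, and -0.36 ± 0.06 (adjusted p = 0.0001) under caterpillars. In primed plants it was -0.75 ± 0.06 (adjusted p = 9.09e-10) under mites. Under caterpillars, primed, it was -0.17 ± 0.06 (adjusted p = 0.0535), with all 4 infested libraries below all 4 controls but a p short of the threshold. PAL4, a weakly expressed PAL gene, had 15.3, 16.2, 15.7 and 18.8 CPM in not-primed and 20.4, 26.1, 22.3 and 25.6 CPM in primed controls. Under mites it had 15.1, 14.5, 12.8 and 14.6 CPM in not-primed and 13.6, 16.4, 12.4 and 13.4 CPM in primed plants, and under caterpillars 15.2, 16.5, 11.5 and 10.6 and 15.8, 17.1, 13.3 and 15.9 CPM. The infested libraries of both seed treatments thus covered 1 range, and the primed controls stood above it. In primed plants its log2 fold change was -0.76 ± 0.12 (adjusted p = 1.29e-05) under mites and -0.61 ± 0.12 (adjusted p = 0.000531) under caterpillars, and both passed. In not-primed plants the values were -0.21 ± 0.12 (adjusted p = 0.163) and -0.30 ± 0.12 (adjusted p = 0.0704). All mite libraries were below all controls there, and the caterpillar libraries overlapped with the controls. The value under caterpillars passed without caterpillar replicate 1, at -0.36 (adjusted p = 0.0453), and without replicate 2, at -0.42 (adjusted p = 0.0159).

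C4H, the cytochrome P450 of the second step, fell slightly under mites. It had 341, 344, 373 and 367 CPM in not-primed controls and 277, 276, 296 and 299.6 CPM under mites, and the groups did not overlap. The log2 fold change was -0.31 ± 0.05 (adjusted p = 3.33e-05) in not-primed and -0.22 ± 0.05 (adjusted p = 0.00167) in primed plants, smaller than that of any other gene of the 10 that fell under mites. Under caterpillars the values were -0.14 ± 0.05 (adjusted p = 0.0570) and -0.12 ± 0.05 (adjusted p = 0.119). The first of these passed by DESeq2 at -0.15 (adjusted p = 0.0207) and by limma on FPKM at -0.15 (adjusted p = 0.0301). By edgeR it also passed without controls 1 and 2, at -0.20 (adjusted p = 0.0430). Without controls 3 and 4 it was -0.11 (adjusted p = 0.192).

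The 3 ligase genes each followed a pattern of their own. 4CL1, the most abundant 4CL gene here and known for its part in lignin, fell under both pests. It had 297, 313, 285 and 272 CPM in not-primed controls, 196, 205, 206 and 196 CPM under mites and 196, 235, 212 and 207 CPM under caterpillars. No infested library reached the lowest control. The log2 fold changes were -0.54 ± 0.06 (adjusted p = 1.81e-08) and -0.46 ± 0.06 (adjusted p = 1.31e-06), and in primed plants -0.47 ± 0.06 (adjusted p = 2.38e-07) and -0.41 ± 0.06 (adjusted p = 4.92e-06). 4CL2, its close paralog, did not pass in any of these comparisons. Its log2 fold changes lay between -0.06 and 0.25, and the 95% interval under mites, not primed, was -0.01 to 0.52. Without not-primed controls 3 and 4 that value was 0.48 (adjusted p = 0.0110), and without control replicate 4 alone it was 0.37 (adjusted p = 0.0266).

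4CL3, the ligase known for feeding the flavonoid branch, fell under mites. It had 45.5, 52.8, 51.4 and 48.8 CPM in not-primed controls, 24.7, 26.0, 21.0 and 21.5 CPM under mites and 50.4, 46.9, 38.7 and 51.7 CPM under caterpillars. The mite libraries were all below the other groups, and the caterpillar libraries overlapped with the controls. The log2 fold change under mites was -1.09 ± 0.09 (adjusted p = 5.33e-10), a level 2.13 times lower and close to that of CAD4 below. Under caterpillars it was -0.08 ± 0.09 (adjusted p = 0.524). In primed plants 4CL3 had 36.6, 29.0, 32.9 and 31.5 CPM in controls, 21.9, 20.2, 20.4 and 17.9 CPM under mites and 39.4, 40.7, 42.7 and 38.4 CPM under caterpillars. These 3 groups did not overlap, and the log2 fold change was -0.70 ± 0.09 (adjusted p = 8.58e-07) under mites and 0.31 ± 0.09 (adjusted p = 0.0117) under caterpillars. That rise was 0.26 (adjusted p = 0.0524) without primed control replicate 2.

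HCT, the enzyme that leads into the lignin branch, fell under both pests. It had 371, 384, 341 and 351 CPM in not-primed controls, 193, 202, 203 and 196 CPM under mites and 252, 277, 269 and 276 CPM under caterpillars. The 3 groups lay apart, with caterpillars in between. The log2 fold change was -0.87 ± 0.05 (adjusted p = 4.67e-12) under mites and -0.43 ± 0.05 (adjusted p = 1.03e-06) under caterpillars. In primed plants the values were -0.88 ± 0.05 (adjusted p = 3.47e-12) and -0.50 ± 0.05 (adjusted p = 1.56e-07).

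The 2 CAD genes moved in opposite directions. CAD4 had 311, 309.7, 254 and 259 CPM in not-primed controls, 135, 145, 148 and 135 CPM under mites and 176, 194, 201 and 198 CPM under caterpillars. The groups did not overlap, and mite libraries were lowest. Its log2 fold change was -1.01 ± 0.07 (adjusted p = 3.38e-11) under mites, a level 2.01 times lower, and -0.56 ± 0.07 (adjusted p = 1.2e-06) under caterpillars. Without controls 1 and 2 these values were -0.87 and -0.41, and without controls 3 and 4 -1.14 and -0.72, and all passed. In primed plants the log2 fold changes were -0.79 ± 0.07 (adjusted p = 1.54e-09) and -0.50 ± 0.07 (adjusted p = 5.32e-06). CAD5 had 24.7, 23.5, 39.6 and 40.5 CPM in not-primed controls, 105, 86.6, 97.2 and 101 CPM under mites and 68.2, 65.7, 50.2 and 51.2 CPM under caterpillars. Again no libraries overlapped between groups, and here the mite libraries were highest.

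CAD5 rose by 1.60 ± 0.16 (adjusted p = 1.14e-08) under mites, a level 3.03 times higher, and by 0.87 ± 0.16 (adjusted p = 0.000199) under caterpillars, a level 1.83 times higher. The size depended on which controls were used. Under mites the rise was 1.27 without controls 1 and 2 and 2.01 without controls 3 and 4. Under caterpillars it was 0.55 (adjusted p = 0.0181) and 1.26 (adjusted p = 1.28e-06). In primed plants, whose controls had 24.4, 32.5, 29.9 and 33.9 CPM, CAD5 had 91.1, 80.3, 96.5 and 77.1 CPM under mites and 65.4, 41.0, 45.4 and 45.5 CPM under caterpillars. All infested libraries were above all controls, and the rises were 1.51 ± 0.16 (adjusted p = 4.27e-08) and 0.71 ± 0.16 (adjusted p = 0.00199).

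Genes listed as markers of some other tissues moved in the same comparisons as CAD5. The 6 xylem and secondary wall markers CESA4, CESA7, CESA8, XCP1, XCP2 and VND7 had a summed level of 38.6 to 60.6 FPKM in not-primed controls, 88.6 to 110.3 FPKM under mites and 75.8 to 93.7 FPKM under caterpillars. In primed plants the sums were 42.8 to 67.4, 70.8 to 86.6 and 90.4 to 106 FPKM. All 6 rose under mites and 5 of 6 under caterpillars in not-primed plants, and 3 of 6 and 6 of 6 in primed plants. Of all tested genes 51.4% and 45.7% changed under mites in not-primed and primed plants, and 27.8% and 23.9% under caterpillars. Without not-primed controls 1 and 2 the counts in not-primed plants were 3 and 2. Within the not-primed controls the xylem sum was 40.9 and 38.6 FPKM in replicates 1 and 2 and 60.4 and 60.6 FPKM in replicates 3 and 4, the same split as CAD5. The order of the pests was not the same in primed plants, where the xylem sum was higher under caterpillars and CAD5 higher under mites. The 4 leaf markers went the other way, from 33861 to 40523 FPKM in not-primed controls to 25312 to 28085 FPKM under mites and 31809 to 35625 FPKM under caterpillars. All 4 fell under mites in both kinds of plants, and 3 of 4 fell under caterpillars. Without not-primed controls 1 and 2 the values under caterpillars in not-primed plants were -0.13 (adjusted p = 0.261) for RBCS1A, -0.07 (adjusted p = 0.564) for RBCS2B and -0.10 (adjusted p = 0.288) for RCA, short of the threshold. PYK10 and GL2, the 2 genes listed as root markers, both rose under each pest. Under mites, not primed, their sum was 281 to 411 FPKM, against 108 to 169 FPKM in controls. Whether this RNA came from root was not tested. Guard cell markers (MYB60, FAMA) and phloem markers (SUC2, APL) changed in fewer comparisons. Under mites 0 of 2 guard cell markers changed in either seed treatment. Under caterpillars 1 rose in not-primed plants, or 0 without controls 1 and 2, and 0 changed in primed plants. Of the 2 phloem markers 1 rose under each pest in not-primed plants. In primed plants 1 rose and 1 fell under mites and 0 changed under caterpillars. No marker was at 0 in every library, and the part of these tissues in the results for the 10 genes was not tested.

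The pests were also compared directly. In not-primed plants 6 of the 10 genes were higher under caterpillars than under mites and CAD5 was lower, where 25.7% of all tested genes changed (13.7% higher and 11.9% lower). In primed plants 4 were higher and CAD5 lower, against 22.0% (10.5% higher and 11.5% lower). The libraries of the pests did not overlap for 8 and 5 of the 10, against 26.3% and 23.4% of all tested genes. 4CL3 differed most, by 1.01 ± 0.09 (adjusted p = 2.72e-08) in not-primed and 1.01 ± 0.09 (adjusted p = 2.71e-08) in primed plants, and the libraries of the pests did not overlap in either. PAL2 was higher under caterpillars by 0.54 ± 0.06 (adjusted p = 1.03e-06) and 0.58 ± 0.06 (adjusted p = 3.3e-07), HCT by 0.44 ± 0.05 (adjusted p = 1.5e-06) and 0.38 ± 0.05 (adjusted p = 9.72e-06), and CAD4 by 0.45 ± 0.07 (adjusted p = 3.08e-05) and 0.29 ± 0.07 (adjusted p = 0.00270). CAD5 was lower under caterpillars, with -0.73 ± 0.16 (adjusted p = 0.00102) in not-primed and -0.80 ± 0.16 (adjusted p = 0.000522) in primed plants. 4CL1 differed little, at 0.08 ± 0.06 (adjusted p = 0.302) with a 95% interval of -0.03 to 0.19 in not-primed plants and -0.05 to 0.16 in primed ones. PAL1 was higher under caterpillars in not-primed plants, by 0.37 ± 0.10 (adjusted p = 0.00856), and this was 0.28 (adjusted p = 0.0506) without caterpillar replicate 1. C4H was higher by 0.17 ± 0.05 (adjusted p = 0.0223), and its adjusted p was between 0.0501 and 0.126 when any of mite replicates 1, 2 and 3 or caterpillar replicate 1 was left out.

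The seed treatment itself was compared within each infestation state, which asks whether priming leaves a mark on these genes. In uninfested plants PAL4 was higher in primed plants and PAL1 and 4CL3 lower, 3 of the 10 genes, where 14.8% of all tested genes changed (7.44% higher and 7.35% lower). The libraries did not overlap for the same 3 genes, against 18.0% of all tested genes. The values of each library are given above. 4CL3 had a mean of 49.6 ± 3.20 CPM (SD, n = 4) in not-primed and 32.5 ± 3.17 CPM in primed controls, with no overlap, and a log2 fold change of -0.61 ± 0.09 (adjusted p = 2.63e-05). This value was -0.63 without not-primed controls 1 and 2 and -0.63 without controls 3 and 4. PAL4 was 16.5 ± 1.56 and 23.6 ± 2.72 CPM, a rise of 0.52 ± 0.12 (adjusted p = 0.00407), which was 0.45 (adjusted p = 0.0668) without controls 1 and 2. PAL1 was 367 ± 23.3 and 294 ± 7.12 CPM, a log2 fold change of -0.32 ± 0.10 (adjusted p = 0.0369), and all primed libraries were below all not-primed ones. Leaving out not-primed control 1 or 2, or primed control 1, 2 or 4, brought the adjusted p of PAL1 to between 0.0635 and 0.106, and leaving out not-primed controls 1 and 2 together gave -0.24 (adjusted p = 0.278). The count of changed genes among the 10 was 1 without controls 1 and 2 and 6 without controls 3 and 4, when PAL2 at -0.21, 4CL1 at -0.21 and CAD4 at -0.34 also passed. The count over all tested genes moved the same way, from 2962 to 1370 and 4537. CAD5 was at -0.09 ± 0.16 (adjusted p = 0.783) with all controls. It was -0.41 without controls 1 and 2 and 0.29 without controls 3 and 4, short of the threshold each time.

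**Figure D3:**
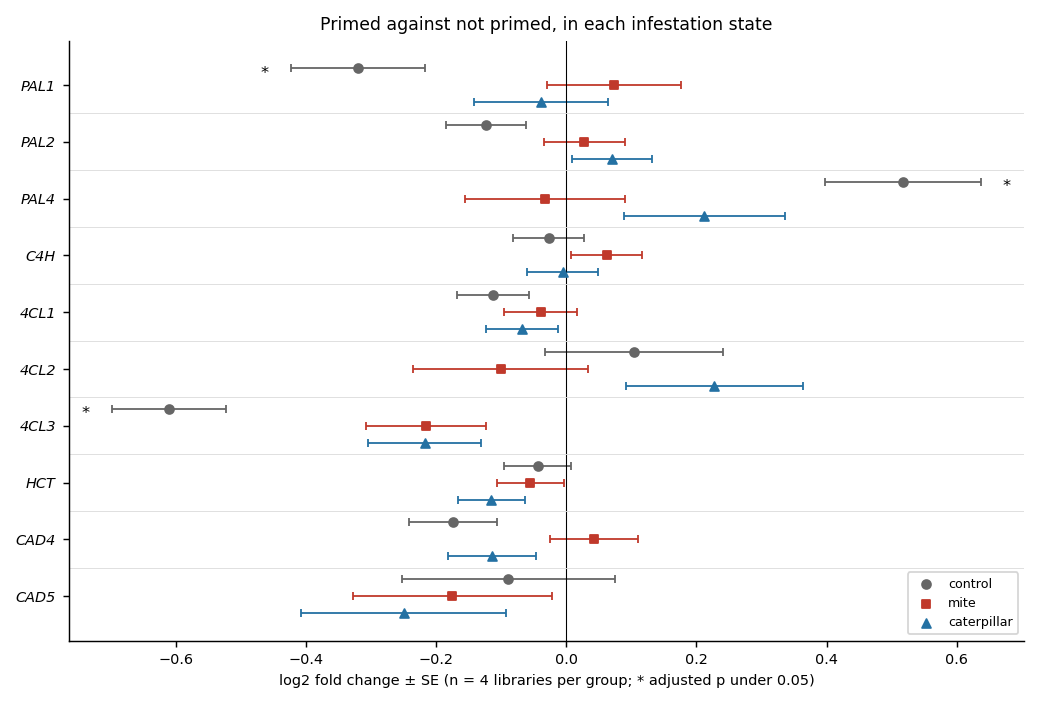
Log2 fold change ± SE (x axis) of primed against not-primed plants for each gene (y axis) in controls (grey), under mites (red) and under caterpillars (blue), n = 4 libraries per group; an asterisk marks an adjusted p under 0.05. PAL1, PAL4 and 4CL3 pass in controls, and 0 of the 10 genes pass under either pest.

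In infested plants none of the 10 genes passed between primed and not-primed plants by edgeR, DESeq2 or limma on FPKM, where 6.36% of all tested genes changed under mites (3.54% higher and 2.82% lower) and 8.15% under caterpillars (3.99% higher and 4.16% lower) by edgeR. The libraries overlapped for all 10 genes, while they did not for 12.1% and 12.8% of all tested genes. At an unadjusted p under 0.05, 4CL3 was the 1 gene under mites, and 4CL3 and HCT were the 2 under caterpillars. 4CL3 was -0.21 ± 0.09 under mites (95% interval -0.40 to -0.03) and -0.22 ± 0.09 under caterpillars (95% interval -0.39 to -0.05). PAL1 was 0.07 ± 0.10 under mites (95% interval -0.13 to 0.28) and -0.04 ± 0.10 under caterpillars (95% interval -0.24 to 0.16).

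Whether priming altered the response to a pest was tested by the interaction of the 2 factors. By edgeR 0 of the 10 genes passed with mites, where 1.10% of all tested genes did (0.529% higher and 0.574% lower), and 4 had an unadjusted p under 0.05: PAL1, PAL4, 4CL3 and CAD4. PAL4 had an interaction of -0.55 ± 0.17 (adjusted p = 0.110) and 4CL3 of 0.40 ± 0.13 (adjusted p = 0.120), and both passed by DESeq2, at -0.53 (adjusted p = 0.0479) and 0.41 (adjusted p = 0.0417). PAL1 at 0.39 ± 0.15 (adjusted p = 0.178) and CAD4 at 0.22 ± 0.10 (adjusted p = 0.273) passed by edgeR without not-primed controls 3 and 4, at 0.50 and 0.38. In that setting the count over all tested genes went from 221 to 2069. Limma on FPKM called 0 of the 10. With caterpillars 0 of the 10 genes passed by edgeR, DESeq2 or limma on FPKM, and PAL2 and 4CL3 had an unadjusted p under 0.05. Among all tested genes edgeR called 0% there, DESeq2 10 genes and limma 0, and 1445 genes had an unadjusted p under 0.05 by edgeR. The response of PAL1 to mites, which passed in primed and not in not-primed plants, was therefore not shown to differ between them.

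The makeup of 3 sets of related genes at the transcript level differed between the groups. The sets are the PAL genes, the 4CL genes, and CAD4 with CAD5, without the other genes of the CAD family. Shares are of the summed FPKM of a set and are given as descriptions, with no test. CAD5 held 11.4% ± 3.98 (SD, n = 4) of the CAD4 and CAD5 sum in not-primed controls, with a range of 7.84% to 14.9%. Under mites its share was 43.6% ± 2.91 in not-primed and 39.9% ± 2.79 in primed plants, and under caterpillars 25.5% ± 4.04 and 23.6% ± 4.25. The sum of both genes was 176 ± 12.2 FPKM in not-primed controls, 138 ± 3.31 FPKM under mites and 141 ± 3.85 FPKM under caterpillars, so it was lower in infested plants while its CAD5 share was higher.

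Among the 4 PAL genes, PAL1 held 49.0% ± 1.32 of the summed FPKM in not-primed controls and PAL2 45.2% ± 0.948. Under mites the shares were 62.6% ± 2.39 and 31.6% ± 2.16, and under caterpillars 60.5% ± 2.60 and 34.6% ± 2.29. PAL1 thus made up most of the PAL transcripts in infested plants. The PAL sum was 256 ± 15.3 FPKM in not-primed controls, 196 ± 9.36 FPKM under mites and 260.1 ± 33.2 FPKM under caterpillars. PAL4 held 2.37% ± 0.279 in not-primed and 3.85% ± 0.492 in primed controls.

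Among the ligases, 4CL1 held 76.3% ± 3.02 of the 4CL sum in not-primed controls, 65.5% ± 3.29 under mites and 68.9% ± 3.11 under caterpillars. 4CL3 held 15.0% ± 0.624, 8.78% ± 0.875 and 17.6% ± 2.26 in the same groups. 4CL5, a ligase outside the 10, went from 3.67% ± 1.60 in controls to 18.3% ± 4.00 under mites and 7.58% ± 1.71 under caterpillars. Close paralogs such as 4CL1 and 4CL2 or CAD4 and CAD5 may share reads that the counting, not stated in the sources used here, could have split between them.

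**Figure D4:**
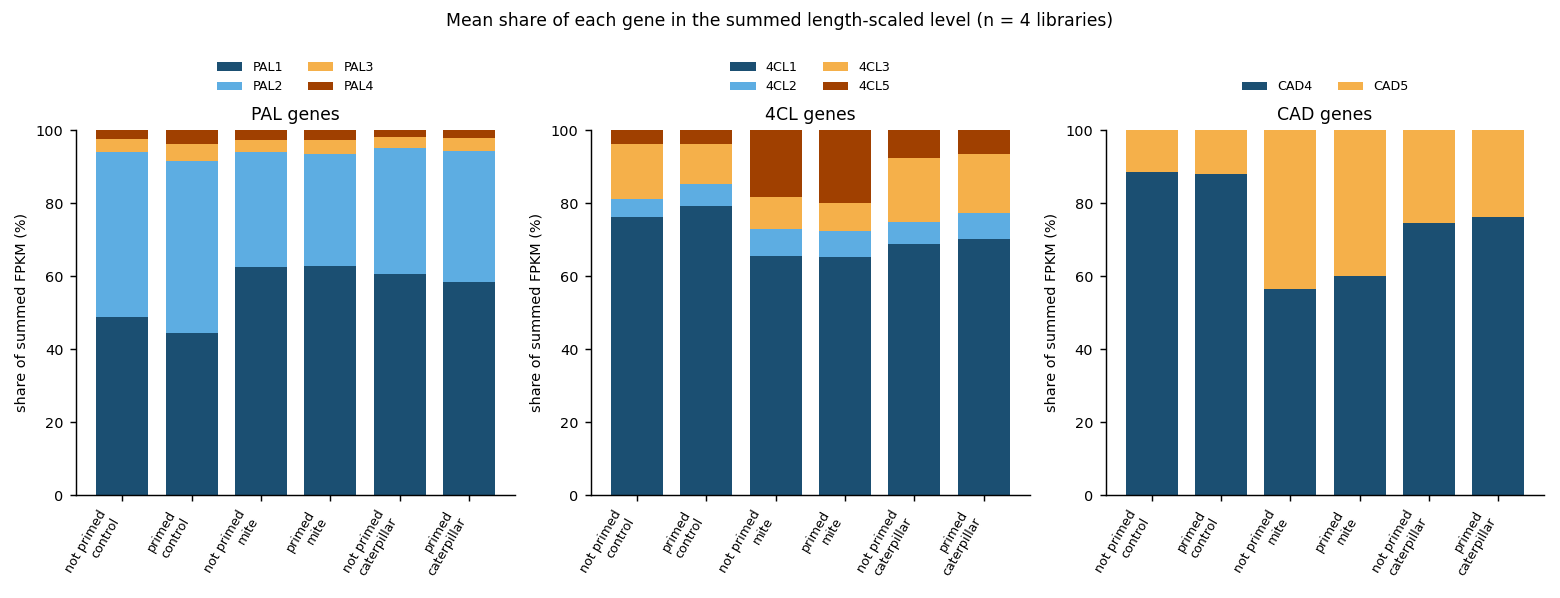
Mean share in percent (y axis, from 0) of each gene in the summed FPKM of its set, by group, n = 4 libraries. The sets are the PAL genes, the 4CL genes, and CAD4 with CAD5, without the other genes of the CAD family. The CAD5 share is 11.4% in not-primed controls and 43.6% under mites, and the 4CL5 share 3.67% and 18.3%.

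The 12 other listed genes of the monolignol route changed in both directions. Beside them, 51.4% of all tested genes changed under mites in not-primed and 45.7% in primed plants, and 27.8% and 23.9% under caterpillars. Under mites, not primed, 5 rose and 4 fell of 12, with a median of -0.01. CCR2, a cinnamoyl-CoA reductase induced in pathogen defence, rose by 3.96 ± 0.35 (adjusted p = 1.49e-09), and 4CL5 by 2.01 ± 0.23 (adjusted p = 7.9e-08). CYP98A3, the hydroxylase that acts on the product of HCT, fell, with -0.84 ± 0.06 (adjusted p = 1.39e-10), close to HCT itself, and PAL3 fell, with -0.53 ± 0.08 (adjusted p = 8.99e-06). In primed plants 4 rose and 3 fell, with CCR2 at 3.35 ± 0.33, 4CL5 at 2.23 ± 0.23 and CYP98A3 at -0.73 ± 0.06. Under caterpillars 4 rose and 3 fell in not-primed plants and 3 rose and 1 fell in primed plants. CCR2 was 1.89 ± 0.37 (adjusted p = 0.000386) in not-primed plants, but 1.17 without controls 1 and 2 and 3.32 without controls 3 and 4, and 1.31 ± 0.36 (adjusted p = 0.00803) in primed plants. CYP98A3 was -0.58 ± 0.06 and -0.46 ± 0.06. Without controls 1 and 2, 2 of the 12 rose and 3 fell under caterpillars in not-primed plants. Under mites 3 fell without controls 1 and 2 and 2 without controls 3 and 4.

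Of 7 other genes of the CAD family, 3 rose and 1 fell under mites in not-primed plants, and 2 rose and 2 fell in primed plants. Under caterpillars 2 rose and 1 fell in not-primed and 2 rose and 2 fell in primed plants. Of all tested genes 51.4% changed under mites in not-primed and 45.7% in primed plants, and 27.8% and 23.9% under caterpillars. Without controls 1 and 2 the counts in not-primed plants were 2 higher and 1 lower under mites and 1 higher and 0 lower under caterpillars, where the fall of CAD7 became -0.07 (adjusted p = 0.640). CAD8, an alcohol dehydrogenase known as an elicitor-induced gene, rose by 3.26 ± 0.67 (adjusted p = 0.000292) under mites and 4.82 ± 0.62 (adjusted p = 2.8e-06) under caterpillars in primed plants. In not-primed plants CAD8 rose by 3.50 ± 0.58 and 4.51 ± 0.57, and by 6.64 and 7.63 without controls 3 and 4. All 5 genes tested for joining monolignols into lignin had positive log2 fold changes under mites, not primed, and 4 passed, with a median of 0.94. PRX52, a peroxidase linked to lignin, rose by 4.52 ± 0.40 (adjusted p = 2.05e-09) and the laccase LAC11 by 1.77 ± 0.20 (adjusted p = 9.59e-08). In primed plants 3 of 5 rose, PRX52 by 4.62 ± 0.43 and LAC11 by 1.36 ± 0.20. Under caterpillars 4 of 5 rose in both kinds, with PRX52 at 3.38 ± 0.41 and 3.43 ± 0.45. Without controls 1 and 2, 3 of 5 rose under each pest in not-primed plants, and LAC4, another laccase gene, was 0.35 (adjusted p = 0.140) under mites and 0.17 (adjusted p = 0.654) under caterpillars. The xylem markers that rose in the same comparisons are given above.

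**Figure D5:**
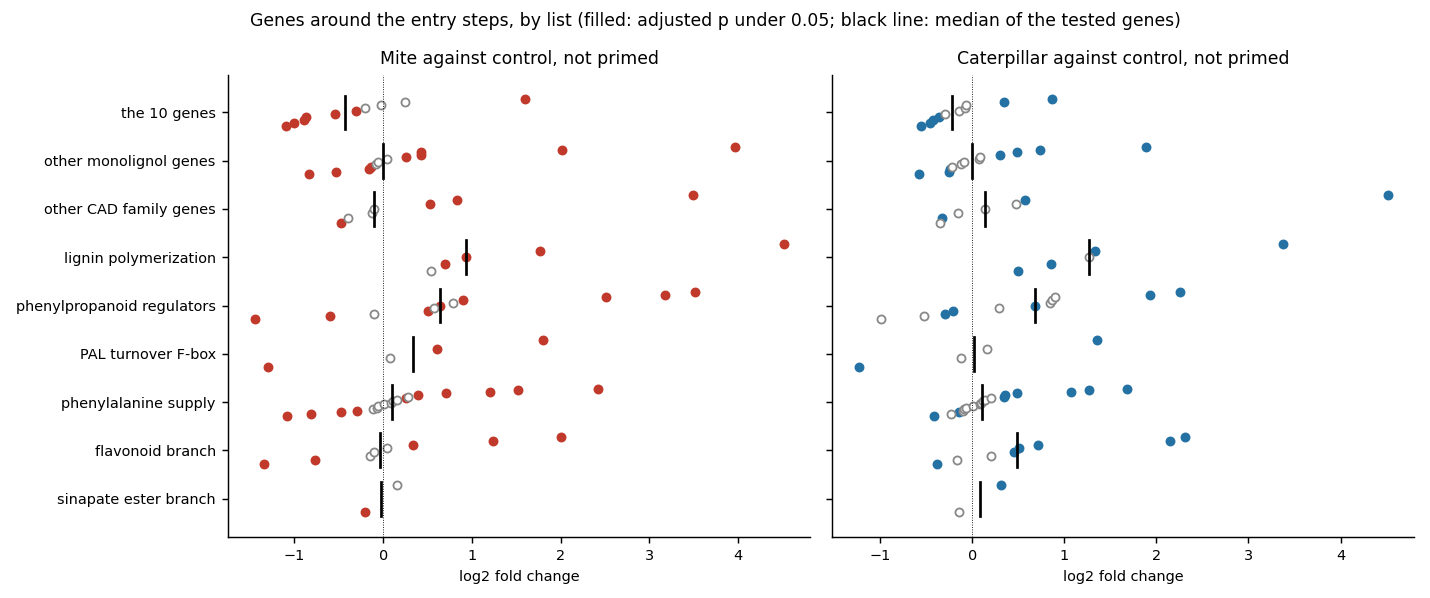
Log2 fold change (x axis) of each tested gene under mites (left) and caterpillars (right) against controls in not-primed plants, n = 4 libraries per group, by list (y axis); filled points have an adjusted p under 0.05 and black lines are the medians of the tested genes. The median of the 10 genes is -0.43 under mites and -0.22 under caterpillars, and that of the lignin polymerization genes 0.94 and 1.27.

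Of 13 regulators of the pathway 11 were tested. Under mites, not primed, 6 rose and 2 fell, with a median of 0.64, and 4 rose without controls 1 and 2. MYB15, an activator of lignin genes in defence, rose by 3.52 ± 0.43 (adjusted p = 1.85e-07), or 5.89 without controls 3 and 4, and by 3.87 ± 0.44 (adjusted p = 1.18e-07) in primed plants. MYB7, of the repressor clade of MYB4, rose by 3.18 ± 0.24 (adjusted p = 1.47e-10) and 3.07 ± 0.25 (adjusted p = 4.46e-10). RFR1 (AT3G23590), a Mediator subunit known to hold the pathway back, fell, with -0.60 ± 0.08 (adjusted p = 1.13e-06) and -0.79 ± 0.08 (adjusted p = 3.18e-08). In primed plants 3 of the 11 rose and 3 fell under mites, with a median of 0.25. Of all tested genes 51.4% changed under mites in not-primed and 45.7% in primed plants. Under caterpillars 3 rose and 2 fell in both kinds of plants, against 27.8% and 23.9% of all tested genes changed. MYB7 was at 1.93 ± 0.25 in not-primed and 1.55 ± 0.26 in primed plants. Without controls 1 and 2, 3 rose and 0 fell under caterpillars in not-primed plants by edgeR. There REF4 (AT2G48110), also a Mediator subunit, was at -0.10 (adjusted p = 0.524) and RFR1 at -0.14 (adjusted p = 0.336).

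The 4 Kelch F-box genes KFB01, KFB20, KFB39 and KFB50, whose products mark PAL proteins for breakdown, changed with the seed treatment. All 4 were higher in primed plants in each infestation state, beside 7.44% of all tested genes higher in controls, 3.54% under mites and 3.99% under caterpillars. KFB20 was higher by 2.27 ± 0.12 (adjusted p = 2.37e-12) in controls, 2.98 ± 0.12 (adjusted p = 2.02e-14) under mites and 2.69 ± 0.12 (adjusted p = 1.7e-13) under caterpillars. KFB50 was higher by 1.24 ± 0.10, 1.61 ± 0.10 and 1.32 ± 0.10, and KFB39 by 2.26 ± 0.17, 1.24 ± 0.15 and 1.22 ± 0.15. KFB01 was higher by 0.66 ± 0.16, 0.83 ± 0.15 and 0.69 ± 0.16, and its value in controls was 0.37 (adjusted p = 0.206) without not-primed controls 1 and 2. The pests changed some of the 4. Of all tested genes 51.4% changed under mites in not-primed and 45.7% in primed plants, and 27.8% and 23.9% under caterpillars. Under mites 2 rose and 1 fell in not-primed and 3 rose and 1 fell in primed plants, and under caterpillars 1 rose and 1 fell in not-primed plants and 1 fell and the other 3 did not pass in primed plants. KFB20 fell in all 4 of these comparisons, with -1.29 ± 0.12 under mites and -1.23 ± 0.12 under caterpillars in not-primed plants and -0.59 ± 0.11 and -0.81 ± 0.11 in primed plants. KFB39 rose by 1.81 ± 0.17 and 1.35 ± 0.17 in not-primed plants and by 0.79 ± 0.15 under mites in primed plants, and was 0.31 ± 0.15 (adjusted p = 0.145) under caterpillars there. KFB01 rose by 0.61 ± 0.16 under mites in not-primed plants, which was 0.31 (adjusted p = 0.147) without controls 1 and 2. The interaction of priming with mites was 0.71 ± 0.16 (adjusted p = 0.0365) for KFB20 and -1.02 ± 0.22 (adjusted p = 0.0272) for KFB39. The call of KFB20 ended without not-primed control 2, primed control 1, 2 or 4, not-primed mite replicate 2 or primed mite replicate 3 or 4, at an adjusted p between 0.0515 and 0.0746. That of KFB39 ended without not-primed control 1 or 2, primed control 1, 2 or 4, not-primed mite replicate 1 or 4 or primed mite replicate 2, 3 or 4, at 0.0514 to 0.0651. With caterpillars neither passed, at 0.42 ± 0.16 (adjusted p = 0.629) and -1.04 ± 0.22 (adjusted p = 0.215). In primed controls PAL4 was higher and PAL1 lower, as given above, and PAL2 was at -0.12 ± 0.06 (adjusted p = 0.196). The list was chosen with earlier results of these data known.

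In the flavonoid branch, which leaves the route after the 4CL step, 8 of 9 listed genes were tested. Under mites, not primed, 3 rose and 2 fell, and under caterpillars 5 rose and 1 fell, with medians of -0.03 and 0.48. Of all tested genes 26.5% rose and 24.9% fell under mites there, and 14.2% and 13.6% under caterpillars. Without controls 1 and 2 the fall under caterpillars, that of FLS1, was -0.35 (adjusted p = 0.0585). DFR, which leads to anthocyanins, rose by 2.01 ± 0.31 (adjusted p = 6.99e-06) under mites and 2.31 ± 0.32 (adjusted p = 5.74e-06) under caterpillars, and without controls 3 and 4 by 3.24 and 3.52. F3'H rose by 2.14 ± 0.28 (adjusted p = 3.31e-06) under caterpillars. FLS1, a flavonol synthase, fell under mites, with -1.35 ± 0.11 (adjusted p = 2.93e-10) in not-primed and -0.88 ± 0.11 (adjusted p = 2.79e-07) in primed plants. Against mites, caterpillars gave higher FLS1, by 0.96 ± 0.11 (adjusted p = 5.94e-07) in not-primed plants, close to the 1.01 of 4CL3. In primed controls CHS at -0.45 ± 0.09 (adjusted p = 0.00102), F3H at -0.46 ± 0.11 (adjusted p = 0.00377) and FLS1 at -0.51 ± 0.10 (adjusted p = 0.00105) were lower than in not-primed controls, as 4CL3 was. Without controls 1 and 2, 5 of the 8 were lower, and 651 of all tested genes. With all controls 7.35% of all tested genes were lower.

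As a description over the 24 libraries, the genes most like each of the 10 were sought by Pearson's r of log2 CPM among 14364 genes, with no p. The libraries share the 6 group means, so each r holds differences between groups as well as the spread within them. HCT and CAD4 were close to each other, with r = 0.98, and PAL2 to HCT, with r = 0.92. CAD5 ran against both HCT and CAD4, with r = -0.94 each, and PAL1 and PAL2 had an r of -0.01. Outside the 10, CAD4 was most like the carbonic anhydrase genes BCA4 and CA2 and the fatty acid desaturase gene FAD5, each with r = 0.98, and HCT like BETA-OHASE 1, GLDP2, a glycine decarboxylase gene of photorespiration, and SWEET2, with r from 0.98 to 0.99. 4CL3 was most like CHIL, a chalcone isomerase-like gene of the flavonoid branch, with r = 0.95. PAL1 was most like MAPKKK14 at r = 0.87 and TT4, the chalcone synthase gene, at r = 0.85. PAL2 was most like MYB28, a regulator of aliphatic glucosinolates, at r = 0.96. CAD5 was most like GATL2, AIG2 and AT1G61610, each with r = 0.98. 4CL2 had no gene above r = 0.76.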

How the data were processed

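The deposited table holds raw counts per gene and library, and the authors also deposited FPKM values, which divide each count by gene length and by a total whose value the tables do not give. Reads were aligned with HISAT2 to TAIR10, per the submitters' processing notes; not given in the sources used here were the counting tool, annotation and strand setting. All 24 libraries (15852109 to 27986799 counts) entered 1 edgeR 4.0.16 fit in R 4.3.3, with TMM normalization, filterByExpr (20038 of 32833 genes), 6 group means, no replicate term and 2-sided quasi-likelihood tests. The SE was derived from each test, by dividing the absolute log2 fold change by the root of its F. Alternatives were DESeq2 1.42.0, limma 3.58.1 on log2(FPKM + 1) and others named in the closing section. On simulated counts for mite against control, not primed, edgeR recovered 100% of the genes with a simulated fold of 2 and 80% of those with a fold of 1.5, and 9 genes left unaltered were called among 19851 tested. The simulation altered few genes, all at 5 CPM or more and as many up as down, in 1 group. It drew the groups from a common mean, without the split of the not-primed controls. These rates hold for that setting, which is simpler than the data. The chi-square of replicate libraries exceeded sampling noise in every pair, so they differed by more than repeated reading of 1 library would give. Each was counted as 1 sample, though this cannot show that the libraries came from separate plants.

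The members and lists were chosen with earlier results of these data known. Named were all 10 members; per list and contrast, the 2 highest and 2 lowest changed genes reaching 5 CPM; and per member the 3 most correlated genes. Symbols came from a RefSeq table of TAIR10.1, which matched all 100 listed genes; its build name differs from that of the notes, so no coordinates or sequences are given.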

Additional observations from a re-analysis of the deposited data

How the results depend on the processing

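Over 2020 values of the 10 genes under single alternatives, 1912 kept their direction and side of the threshold, 60 that were never called changed sign (the largest was 0.29, CAD5 for priming in controls), 17 lost and 31 gained a call, and 0 called values changed sign; of 4358 values of called list genes, 284 lost the call. The number of the 10 genes changed by priming in controls was 3, but 1 without not-primed controls 1 and 2 and 6 without controls 3 and 4. For the interaction with mites it was 0, but 2 by DESeq2 and 2 without controls 3 and 4. Leaving out 1 replicate gave 7 to 8 genes for mites and 5 to 7 for caterpillars in not-primed plants, 9 to 9 and 6 to 7 in primed plants, 2 to 5 for priming in controls, 0 to 0 under mites and 0 to 1 under caterpillars (4CL3, without NP_P replicate 3), 5 to 7 and 5 to 6 for caterpillars against mites, and 0 to 0 for both interactions. The causes were not tested. Over all tested genes, the interaction with mites gave 221 genes, but 691 by DESeq2, 79 to 611 without 1 replicate, 135 by unfiltered limma, and 111 and 2069 without either control pair. That with caterpillars gave 0, but 10 by DESeq2, 1 without the filter, 2 by unfiltered limma, 0 to 2 without 1 replicate, and 9 and 486 without either pair. Priming in controls gave 2962, but 1370 and 4537 without either pair and 1854 without not-primed control 1. Priming under caterpillars gave 1634, and 1032 without primed caterpillar replicate 4, and caterpillars against control, not primed, gave 5574, and 2485 without controls 1 and 2. Same-numbered libraries shared little deviation, with r from -0.17 to 0.17 over 36 pairs, 13 of them best with their own number. Between the pests in primed plants every library was best with its own number, at r from 0.03 to 0.10. With 4 libraries per group such low r cannot settle whether the replicate numbers pair the samples. With the replicate block PAL4 and PAL2 passed under caterpillars in not-primed and primed plants (-0.31 and -0.16). PAL1 then passed between the pests in primed plants (0.26). PAL4 and 4CL2 had the fewest counts of the 10, 242 to 495 and 262 to 465 per library; their SE for mites, not primed, was 0.12 and 0.14, beside 0.10 for PAL1, with 5173 to 10815 counts.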

Other observations

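The supply of phenylalanine, the substrate of PAL, was followed in 18 listed genes of the shikimate and phenylalanine routes. Under mites 6 rose and 4 fell in not-primed plants and 8 rose and 5 fell in primed plants, with medians of 0.10 and 0.15. Of all tested genes 26.5% rose and 24.9% fell in not-primed plants, and 22.3% and 23.5% in primed plants. ADT5, an arogenate dehydratase, rose by 2.42 ± 0.25 (adjusted p = 2.45e-08) under mites and 1.68 ± 0.25 (adjusted p = 2.11e-05) under caterpillars in not-primed plants, and by 2.09 ± 0.25 (adjusted p = 2.97e-07) and 1.40 ± 0.26 (adjusted p = 0.000201) in primed plants. CM3, a chorismate mutase, rose by 1.52 ± 0.15 (adjusted p = 1.33e-08) and 1.68 ± 0.15 (adjusted p = 4.11e-09) under mites, while its paralog CM1 fell, with -1.08 ± 0.08 (adjusted p = 2.02e-10) and -0.93 ± 0.08 (adjusted p = 2.77e-09). ADT3 fell, with -0.81 ± 0.06 (adjusted p = 1.4e-10) and -0.44 ± 0.06 (adjusted p = 1.8e-06). CM3 and CM1, and ADT5 and ADT3, thus moved in opposite directions under mites. These genes were named as the highest and lowest changed of the list, so opposite directions among them follow from that choice. Under caterpillars 6 of the 18 rose and 2 fell in both kinds of plants, where 27.8% and 23.9% of all tested genes changed. In not-primed plants 5 rose and 1 fell without controls 1 and 2. DHS1, the entry enzyme of the shikimate route, rose by 1.26 ± 0.16 (adjusted p = 2.18e-06) under caterpillars in not-primed plants.

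In the sinapate ester branch, which uses p-coumarate-derived acids for sunscreens, 2 of 3 listed genes were tested. UGT84A2, a sinapate glucosyltransferase, was lower in primed plants, with -0.68 ± 0.07 (adjusted p = 3e-07) in controls, -0.39 ± 0.07 (adjusted p = 0.000481) under mites and -0.40 ± 0.07 (adjusted p = 0.000598) under caterpillars. In primed plants it rose by 0.45 ± 0.07 (adjusted p = 1.76e-05) under mites and 0.60 ± 0.07 (adjusted p = 1.13e-06) under caterpillars. In not-primed plants it was 0.15 under mites, short of the threshold, and rose by 0.31 under caterpillars. Without controls 3 and 4, 0 of the 2 genes rose under caterpillars there. The interaction of priming with each pest was 0.29 and did not pass, so its response was not shown to differ between primed and not-primed plants. Without not-primed controls 3 and 4, 1 of the 2 genes passed for the interaction with mites, with a positive value.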
